A study of Rattus norvegicus with 4 samples.

Results

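L4/5 intratelencephalic (IT) excitatory neurons of the rat orbitofrontal cortex were taken as the nuclei in which Hgf, Rorb and Col8a1 together led over the marker sets of the other cortical projection neurons. Of 46633 barcodes in 4 libraries, 3584 met the rule: 868 and 781 in the METH libraries and 1211 and 724 in the saline libraries. A member had at least 500 genes, at most 5% mitochondrial UMIs (unique molecular identifiers, each counting 1 captured transcript), at least 3 UMIs of Slc17a7 and Camk2a, at most 1 UMI of Gad1 and Gad2, and at least 3 UMIs of Hgf, Rorb and Col8a1. That last sum also had to be more than 2 times the sum of each of 5 other panels of 3 genes. Those panels gave 3655 L2/3 IT, 711 L5 ET (extratelencephalic), 315 L5/6 NP (near-projecting), 1644 L6 CT (corticothalamic) and 1224 L6 IT nuclei, and the members were 3584 of the 18407 excitatory nuclei.

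The study profiled nuclear RNA from the orbitofrontal cortex of wild-type male Sprague-Dawley rats aged 8 weeks by droplet sequencing. In the METH group the rats had received methamphetamine, a psychostimulant that raises extracellular dopamine, serotonin and noradrenaline, at 1 mg/kg by intraperitoneal injection over 7 days. In the saline group they had received saline by the same route over the same time. Tissue of 4 animals per group went into 2 libraries per group. The sources used here do not tie animals to libraries. The p-values below therefore reflect how far libraries of a group lie apart, and that may be technical in part.

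IT neurons are glutamatergic projection neurons whose axons stay within the telencephalon and link cortical areas of both hemispheres and the striatum. Rorb encodes an orphan nuclear receptor that marks layer 4 cells of mouse sensory cortex, and the rodent orbitofrontal cortex is an agranular area without a distinct layer 4. Hgf encodes hepatocyte growth factor, the ligand of the receptor tyrosine kinase MET, and Col8a1 a short-chain collagen of the extracellular matrix. The orbitofrontal cortex is known for its part in valuing rewards and in updating choices, and it receives dopamine, serotonin and noradrenaline fibres from the brainstem.

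Saline replicate 1 stood apart in depth. Members had medians of 5932.5 and 6794 UMIs in the METH libraries, against 3558 UMIs in saline replicate 1 and 6700.0 UMIs in saline replicate 2. Summed over members, the libraries held 4812682 to 5953717 UMIs, so the 4 sums were of like size. Pairs of libraries shared 23 to 69 barcodes, at most 0.672% of the smaller library.

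Rorb carried the rule. It held the most UMIs of the 3 genes in 95.05% and 95.5% of METH members and in 94.5% and 93.4% of saline members, and 99.3% to 99.7% of members in each library had a Rorb UMI. A Hgf UMI was present in 27.8% and 32.7% of METH members and in 27.3% and 36.3% of saline members. In inhibitory nuclei, which should lack Hgf, the share was at most 1.11% at medians of 2410 to 4594 UMIs, while in astrocyte nuclei, chosen by Aqp4, Gja1 and Slc1a3, it was 4.51% to 6.13% at medians of 1062 to 1930.5 UMIs. The values of the rule genes describe the choice and were not tested: Rorb averaged 1315 ± 86.0 CPM in L4/5 IT (SD, n = 4 libraries; CPM, UMI counts scaled to the UMI total of the summed nuclei), against 162 CPM in the next panel, L5/6 NP. Hgf averaged 113 ± 18.4 CPM, against 10.9 CPM in L6 IT, and Col8a1 72.8 ± 8.92 CPM, against 17.01 CPM in L6 IT. Rorb and Hgf were not confined to these neurons, with 1772 CPM of Rorb and 33.1 CPM of Hgf in the astrocyte nuclei. Summed over 6 astrocyte markers, members had 159 CPM (median of 4 libraries). L2/3 IT, L6 IT and L5 ET had less, at 73.0, 63.1 and 58.7 CPM, and L5/6 NP and L6 CT had more, at 188 and 207 CPM. The part that astrocyte RNA has in the choice of members was not tested.

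Members near the threshold were most frequent in the shallowest library. Just inside it, 71 and 45 METH members and 229 and 51 saline members had exactly 3 panel UMIs. Just outside it, 19 and 16 METH nuclei and 124 and 19 saline nuclei had 2 panel UMIs and none of the other panels. A further 301 and 258 METH nuclei and 350 and 248 saline nuclei had this panel highest but by no more than 2 times.

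The start of the Hgf gene is shown because its promoter holds the letters that ROR nuclear receptors are known to bind. The sequence is RefSeq's, GRCr8 chr4:19700418-19700717, minus strand, from 250 bases before to 50 bases after the start, with AGGTCA on either strand in capitals.
Hgf: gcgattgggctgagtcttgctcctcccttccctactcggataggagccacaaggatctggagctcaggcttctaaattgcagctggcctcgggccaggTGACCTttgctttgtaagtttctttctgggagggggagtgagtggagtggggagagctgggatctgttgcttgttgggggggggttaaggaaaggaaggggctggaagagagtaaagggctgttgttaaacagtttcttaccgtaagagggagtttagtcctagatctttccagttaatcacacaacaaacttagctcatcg
It holds 1 match, and the promoters of Rorb and Col8a1, the other genes of the rule, hold 0. Of the 15 genes highest in L4/5 IT described below, 11 have a promoter in the same table, and 2 of these hold a match, Hnmt at its 1 start and Lcorl at 3 of 16 starts. AGGTCA or its complement stands in 5415 of 33469 such rat promoters (16.2%), so a match is common, and it is a description of the letters and not of a bound site. That share counts promoters, while the 2 of 11 counts genes with a match at any start, so they are not like measures.

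Other genes set the label against the data: markers of subcerebral neurons were low, and 2 markers of a sensory layer 4 were near 0. Fezf2 and Bcl11b, which mark subcerebral neurons, averaged 7.04 and 5.70 CPM, against 35.8 and 473 CPM in L5 ET. Il1rapl2, a synaptic adhesion receptor, averaged 2428 CPM, against 61.0 CPM in L2/3 IT and 2169 CPM in L5/6 NP. Rspo1 and Scnn1a, known from layer 4 of mouse sensory cortex, were at 0.0519 and 0.140 CPM, with no UMI in at least 2 of the 4 libraries. Gad1, an inhibitory marker capped by the rule, was at 2.42 CPM, against 587 CPM in inhibitory nuclei. Those nuclei were chosen by Gad1 and Gad2, so this contrast only describes the 2 choices.

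Genes that the rule did not name also set the members apart from every other panel, as a description, since the nuclei were chosen on this contrast. Of 3573 named genes at 50 CPM or more in L4/5 IT, 193 (5.4%) were higher than all 5 other panels in all 4 libraries, and 16 of these by at least 2 times. Thsd7a, a membrane protein of the thrombospondin type 1 family, had 876 and 908 CPM in METH members and 817 and 793 CPM in saline members. Its mean was 6.31 times that of L2/3 IT, the nearest panel (folds between groups of nuclei here have 5 CPM added). Pld5, a phospholipase D family member, averaged 416 CPM and stood 5.95 times above L5/6 NP. Lcorl, a transcription factor gene, followed at 3.22 times L2/3 IT, and Boc, a Hedgehog co-receptor, at 2.70 times L2/3 IT.

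The remaining high genes were of several kinds. Hnmt, which inactivates histamine, averaged 817 CPM and stood 2.60 times above L2/3 IT. Zdhhc2, which palmitoylates postsynaptic proteins such as PSD-95, averaged 445 CPM, 2.61 times L5/6 NP. Kcnh5, a voltage-gated potassium channel of the ether-à-go-go family, averaged 1329.9 CPM, 2.43 times L5/6 NP. The adhesion molecule Cntn5 (2503 CPM) and the receptor Gpr158 (1305 CPM) exceeded their nearest panels 2.14 and 2.13 times. Angpt1, the angiopoietin that activates the TIE2 receptor, averaged 65.4 CPM, 2.07 times L6 IT. Bmp1, a protease that processes procollagens, averaged 61.6 CPM, 2.58 times L2/3 IT. Shroom3, which acts on the apical actin of epithelia, averaged 151 CPM, 2.39 times L2/3 IT. Ptchd4, a patched-domain protein, averaged 438 CPM, 2.31 times L5/6 NP. Lemd1 and the orphan receptor Gpr149 completed the 15, each 2.42 times L2/3 IT. SDs over the 4 libraries ran from 2.25 CPM for Bmp1 to 184 CPM for Cntn5. The contrast covers excitatory panels only. Thsd7a and Ptchd4 averaged 883 and 1024 CPM in inhibitory nuclei and Angpt1 108 CPM in astrocyte nuclei, above their L4/5 IT means. The rest of the 15 were below their L4/5 IT means in inhibitory, astrocyte, oligodendrocyte and microglia nuclei. Among them, Pld5 averaged 390 CPM in inhibitory and 345 CPM in astrocyte nuclei.

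**Figure D1:**
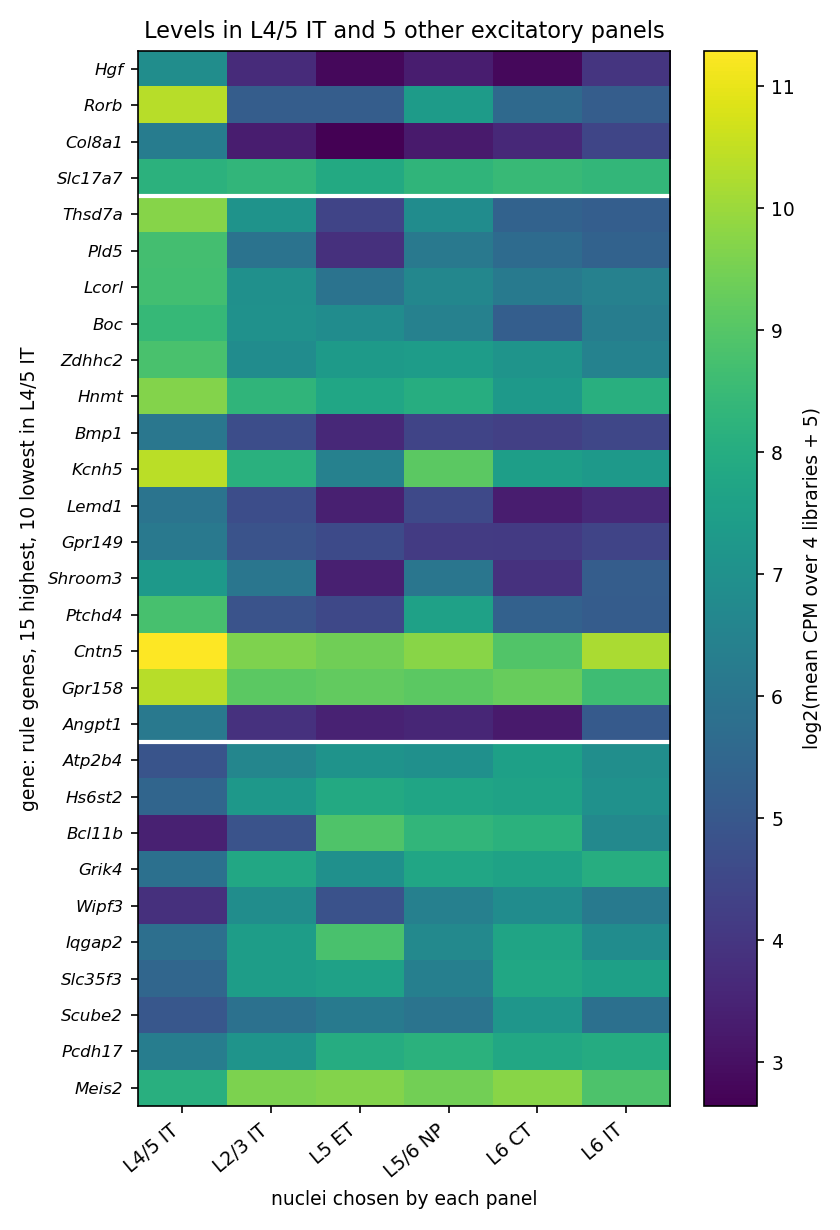
Each row is a gene and each column the nuclei of a panel, L4/5 IT leftmost; colour gives log2 of the mean CPM over 4 libraries plus 5. The upper block holds 4 genes of the rule, the middle block the 15 genes highest and the lower block the 10 genes lowest in L4/5 IT; Thsd7a reaches 848 CPM in L4/5 IT and Bcl11b 473 CPM in L5 ET.

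Fewer genes were lower in L4/5 IT than in every other excitatory panel. Of 3682 genes at 50 CPM or more over the other panels, 145 (3.94%) were lower than every one of them in all 4 libraries, and 4 of these by at least 2 times. Atp2b4, a calcium pump of the plasma membrane, averaged 24.8 CPM, 0.302 times L2/3 IT, the nearest panel. Hs6st2, a heparan sulfate sulfotransferase, followed at 0.337 times L6 IT, and Bcl11b, a zinc finger repressor, at 0.373 times L2/3 IT. Grik4, a kainate receptor subunit, averaged 52.2 CPM, 0.457 times L5 ET. The homeobox gene Meis2 averaged 267 CPM, against 462 CPM in L6 IT. Wipf3, of the WASP-interacting family, averaged 9.48 CPM, against 23.5 CPM in L5 ET. Pcdh17 averaged 74.1 CPM, against 135 CPM in L2/3 IT. Iqgap2, Slc35f3 and Scube2 were the other 3.

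Over 4356 genes, the levels of L4/5 IT were most like those of L6 IT (Pearson r = 0.929 across genes of log2 mean CPM plus 5). L2/3 IT followed at 0.908, L5/6 NP at 0.902, L6 CT at 0.865 and L5 ET at 0.860. All panels come from the same 4 libraries, genes are not independent, and no test is attached. Genes at least 2-fold apart numbered 201 of 3798 against L6 IT and 399 of 3922 against L5 ET.

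Receptors for the monoamines that METH releases were unevenly expressed. Htr2a, a serotonin receptor, averaged 140 ± 13.6 CPM in L4/5 IT (SD, n = 4 libraries), above the 82.2 CPM of L6 IT. Htr2c averaged 125 ± 15.7 CPM, against 4.45 CPM in L2/3 IT and 329.6 CPM in L5/6 NP. The adrenergic receptor Adra1b averaged 81.3 CPM, against 60.1 CPM in L5 ET, while Adra1a averaged 69.3 CPM, below the 262 CPM of L5 ET. Dopamine receptors were at the edge of detection: Drd1 had 2 UMIs in all members together, Drd2 averaged 0.816 CPM and Drd5 had none. Met, the receptor of the growth factor in the rule, had 8 UMIs in all: 3 and 1 in the METH libraries and 2 and 2 in the saline libraries.

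The members were not uniform, and nuclei with a Hgf UMI differed from those without in the same direction in all libraries for many genes. This split was chosen after the data were seen and uses a gene of the rule, so it is a description. Nuclei with a Hgf UMI were deeper, with medians of 7152 and 7299 UMIs in the METH libraries and 3905 and 7535 UMIs in the saline libraries. The medians without Hgf were 5622 and 6329 UMIs in the METH libraries and 3423.5 and 6020.0 UMIs in the saline libraries. A Col8a1 UMI stood in 53.1% and 43.9% of METH and 28.7% and 52.1% of saline nuclei with Hgf. Without Hgf it stood in 21.2% and 21.1% of METH and 17.05% and 22.1% of saline nuclei, and the part of depth in that was not tested.

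Of 3548 named genes at 50 CPM or more with Hgf, 842 (23.7%) were higher with Hgf in all 4 libraries, 18 of them at least 2-fold. Of 3589 at that level without Hgf, 858 (23.9%) were lower with Hgf in all 4 libraries, 26 of them at least 2-fold. Htr2c had 242 and 225 CPM in METH nuclei with Hgf and 263 and 202 CPM in saline nuclei with Hgf. Without Hgf it had 55.6 and 64.2 CPM in METH nuclei and 97.6 and 53.4 CPM in saline nuclei. The 2 sets of values do not overlap. Angpt1 averaged 132 CPM with Hgf and 30.1 CPM without, 3.90-fold higher. Adra1b averaged 141 CPM with Hgf and 49.0 CPM without, and Adra1a 115 CPM with and 44.4 CPM without. Rspo2, a secreted enhancer of WNT signalling, averaged 177 CPM with Hgf and 65.1 CPM without.

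Genes lower in the nuclei with Hgf included one of the genes that stood highest over the other excitatory panels. Pld5 averaged 119 CPM with Hgf and 577 CPM without, 0.213-fold. Cd200r1, the receptor of the CD200 surface protein, averaged 19.5 CPM with and 112 CPM without, and Thsd7b 55.5 CPM with and 213 CPM without. The kainate receptor subunit Grik1 averaged 22.4 CPM with and 83.4 CPM without. Brinp3 averaged 255 CPM with and 750.2 CPM without, and Alcam, an adhesion molecule of the immunoglobulin family, 167 CPM with and 488 CPM without. Rorb averaged 1045 CPM with and 1459 CPM without, a difference that the rule fixes in part, since members without Hgf had to reach 3 panel UMIs by Rorb and Col8a1. Splitting by a Col8a1 UMI gave smaller differences: 587 genes were higher (16.5% of 3555) and 555 lower (15.5% of 3586) in all libraries, of which 0 and 4 reached 2-fold.

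**Figure D2:**
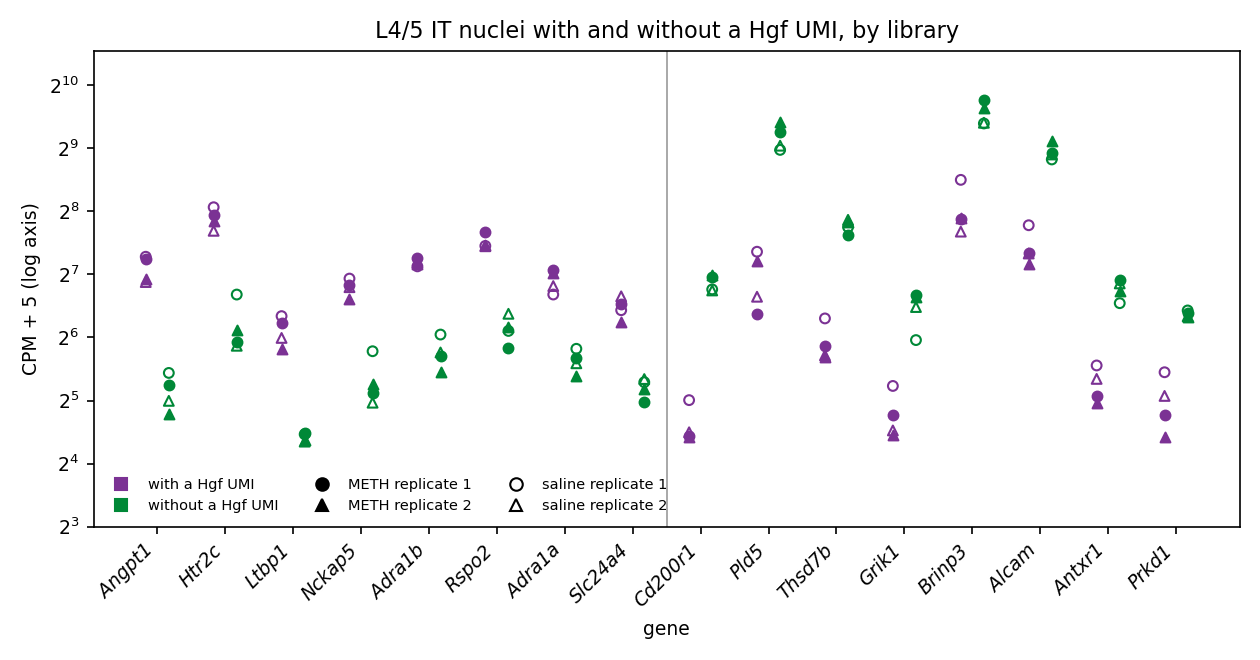
Each point is the CPM plus 5 (log axis) of a gene in the L4/5 IT nuclei of 1 library, with a Hgf UMI (purple) or without (green); filled symbols are METH and open symbols saline. The 8 genes left of the line are higher with Hgf in all 4 libraries, up to 3.90-fold for Angpt1, and the 8 genes right of it are lower, down to 0.209-fold for Cd200r1.

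METH and saline members differed in 1 gene past the threshold, Cst3, and it was higher after METH. Its product, cystatin C, is secreted and blocks cysteine proteases such as the cathepsins. It had 163.6 and 142.8 CPM in METH members, against 82.5 and 87.5 CPM in saline members. Both METH values lie above both saline values. The log2 fold change was 0.86 (SE 0.0898), with an adjusted p of 0.00012 by edgeR's quasi-likelihood F test adjusted by Benjamini and Hochberg's method across 12499 genes, of which 0.008% were called. The test compared 2 METH with 2 saline library sums. Across 17 alternatives the adjusted p ranged over 3.55e-19 to 0.0239, and Cst3 was called in each of them.

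The promoter of Cst3 is printed as the start of the only gene called. It is RefSeq's, GRCr8 chr3:156793888-156794187, minus strand, from 250 bases before to 50 bases after the start, and holds 0 matches to AGGTCA on either strand.
Cst3: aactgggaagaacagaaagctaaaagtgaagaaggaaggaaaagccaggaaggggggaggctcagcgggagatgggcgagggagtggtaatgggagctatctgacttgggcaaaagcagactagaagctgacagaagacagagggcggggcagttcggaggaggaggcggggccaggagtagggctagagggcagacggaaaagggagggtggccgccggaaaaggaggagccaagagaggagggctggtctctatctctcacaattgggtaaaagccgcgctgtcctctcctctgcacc

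Higher Cst3 levels in METH libraries were also seen outside L4/5 IT. In L2/3 IT it had 150.1 and 128.5 CPM in METH libraries, against 66.3 and 75.3 CPM in saline libraries. Both METH values exceeded both saline values in the other 4 excitatory panels too, and in inhibitory, oligodendrocyte and astrocyte nuclei. Astrocyte nuclei had 795 and 843 CPM in METH, against 450.4 and 596.5 CPM in saline. In microglia nuclei the groups overlapped, with 2421 and 2122 CPM in METH, against 1169 and 2223 CPM in saline. The class-by-METH term, which sets the METH difference of L4/5 IT against that of the other 5 panels, was -0.08 (SE 0.0873) for Cst3, with an adjusted p of 0.999 by edgeR. These classes share their libraries and are not independent.

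Markers of glia moved with Cst3. Over all barcodes of a library Cst3 had 324 and 326 CPM in METH, against 142 and 190.4 CPM in saline. The level in L4/5 IT members was 50.5% and 43.8% of the library level in METH, against 58.1% and 46.0% in saline. Summed oligodendrocyte markers (6 of 6 detected) had 266 and 278 CPM in METH members, against 198 and 210.1 CPM in saline members. Summed microglia markers (9 of 9 detected) had 84.8 and 94.2 CPM in METH, against 65.04 and 69.8 CPM in saline. In their own nuclei these sums had medians of 14473 and 5309 CPM. The 6 astrocyte markers summed to 155 and 162 CPM in METH, against 199 and 137 CPM in saline, which overlap. The part that RNA from glia has in the Cst3 result was not tested.

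**Figure D3:**
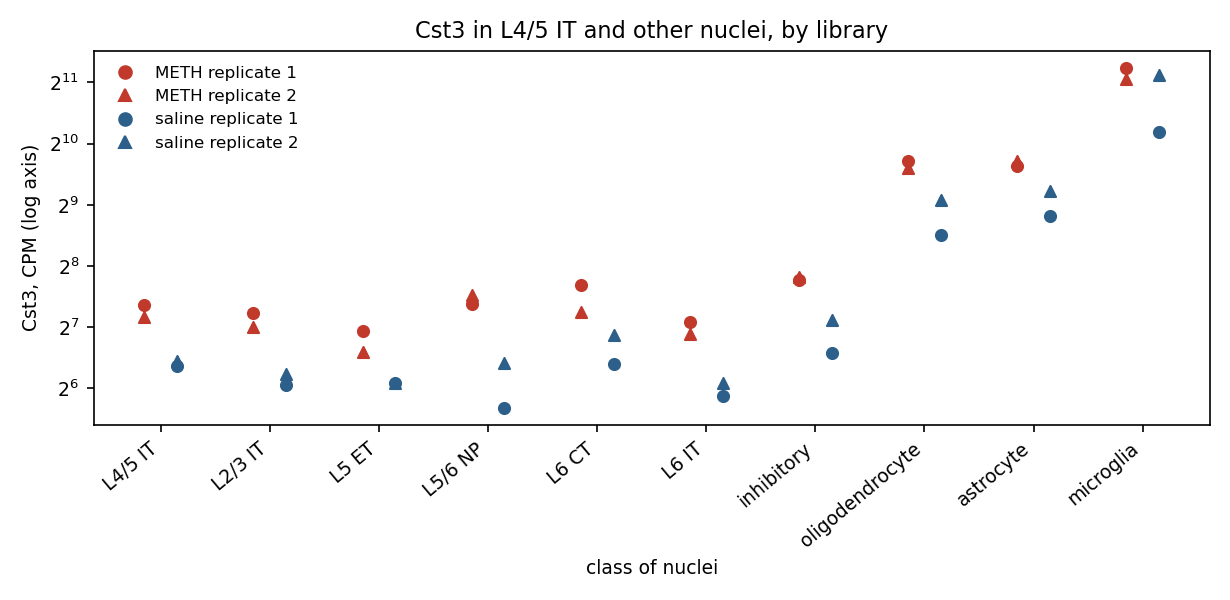
Cst3 in CPM (log axis) is drawn for each library in 10 classes of nuclei, METH (red) left of saline (blue), circles for replicate 1 and triangles for replicate 2. METH lies above saline in L4/5 IT (163.6 and 142.8, against 82.5 and 87.5 CPM) and in each other class but microglia, where the groups overlap.

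No gene passed the threshold as lower after METH, while 291 of the 12499 genes had an unadjusted p under 0.05 in that direction and 385 in the other (5.41% together). DESeq2 also called 0 lower, with 128 genes at an unadjusted p under 0.05 in either direction. Of the 5 lowest by p among genes with the groups apart, none passed, and 4 are given as values. Samd5 had 131.6 and 126 CPM in METH members, against 167.7 and 184.1 CPM in saline members (log2 fold change -0.44, SE 0.0784, adjusted p = 0.0824 by edgeR). Pcdh17, a protocadherin that was also among the 10 genes lowest in L4/5 IT, had 60.2 and 63.2 CPM in METH, against 90.0 and 83.2 CPM in saline. Its log2 fold change was -0.48 (SE 0.0964), with an adjusted p of 0.178 by edgeR. Its class-by-METH term was -0.48 (adjusted p = 0.652 by edgeR).

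Etv1, a transcription factor of layer 5 neurons, had 137 and 144 CPM in METH members, against 189.7 and 171 CPM in saline members (adjusted p = 0.307 by edgeR). Ssh3, a slingshot family phosphatase that acts on cofilin, had 32.2 and 28.4 CPM in METH, against 48.4 and 38.4 CPM in saline (adjusted p = 0.583 by edgeR). These 4 genes were picked among genes whose groups do not overlap, so that separation is not a result. Groups that do not overlap were common over all genes tested, at 33.9%, with 15.4% higher and 18.4% lower. Hgf, a gene of the rule and so a description, had 93.3 and 101 CPM in METH members, against 123 and 133 CPM in saline members.

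**Figure D4:**
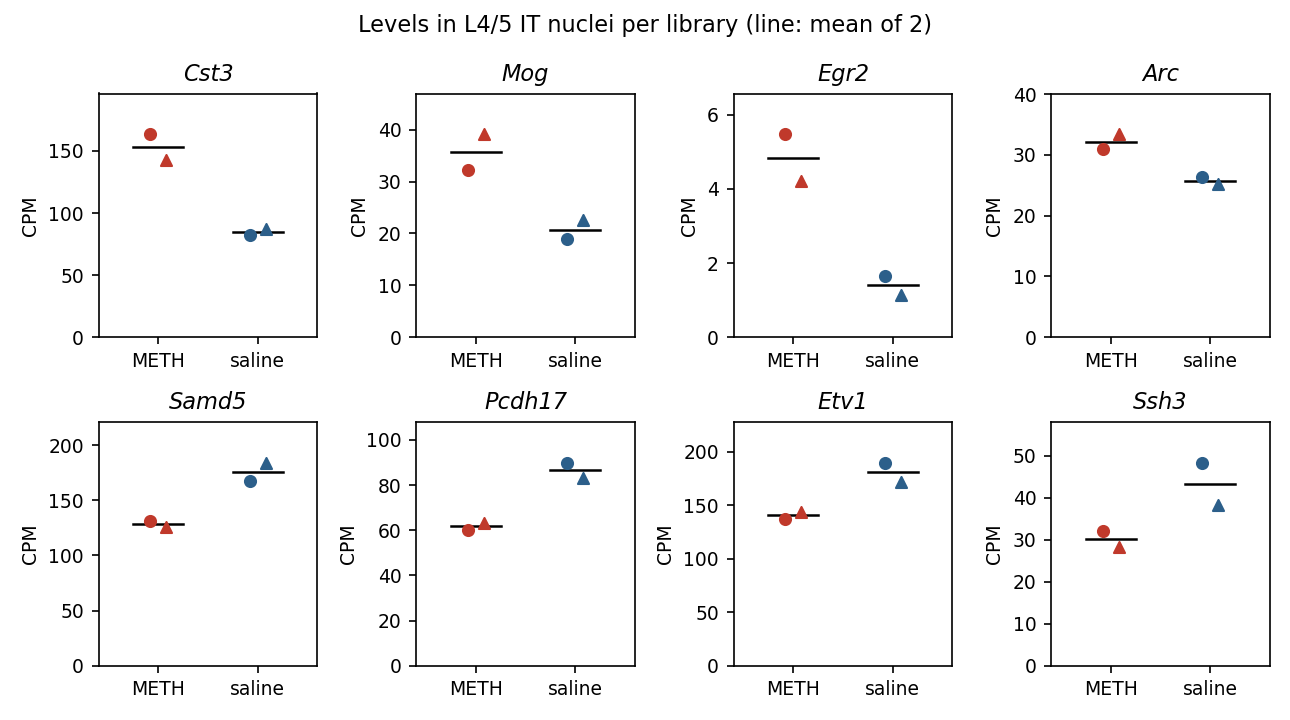
Points are the CPM of 8 genes in L4/5 IT members of each library, METH (red) left of saline (blue), circles for replicate 1 and triangles for replicate 2, with a line at the mean of 2. Cst3 passed the test and the other 7 genes did not. The groups are apart in each panel, which was a condition for naming Samd5, Pcdh17, Etv1 and Ssh3.

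Immediate early genes, which neurons switch on with activity, were given as a list of 21 genes. Of the 20 tested, 0 passed, 17 had a positive and 3 a negative log2 fold change, and the median was 0.32, against -0.00168 over all genes. An unadjusted p under 0.05 was reached by 5 of the 20, all positive, against 5.41% of all genes tested in either direction. Summed, the list had 2468 CPM in METH replicate 1 and 1824 CPM in METH replicate 2, against 1561 and 1647 CPM in saline. Egr2 had 5.48 and 4.20 CPM in METH members, against 1.66 and 1.13 CPM in saline members, from 31, 25, 8 and 6 UMIs (log2 fold change 1.79, SE 0.411, adjusted p = 0.312 by edgeR). Nr4a1 had 89.8 and 103 CPM in METH, against 82.3 and 69.8 CPM in saline. Arc had 30.9 and 33.4 CPM in METH, against 26.4 and 25.1 CPM in saline (adjusted p = 0.793 by edgeR).

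Other genes of the activity programme, did not pass. Fos had 10.1 and 9.41 CPM in METH, against 7.27 and 7.37 CPM in saline, and Npas4 13.3 and 15.5 CPM in METH, against 12.5 and 13.2 CPM in saline. Homer1, a postsynaptic scaffold gene with an activity-induced short form, had 2039.6 CPM in METH replicate 1, against 1370.4 CPM in METH replicate 2 and 1154 and 1301 CPM in saline. METH replicate 1 alone was far above the rest. Without METH replicate 2 the log2 fold change of Homer1 was 0.75 (adjusted p = 0.0010 by edgeR), against 0.49 with it. Bdnf, a neurotrophin, had 68.4 and 55.8 CPM in METH, against 53.2 and 51.4 CPM in saline, and its receptor gene Ntrk2 1446 and 1330.3 CPM in METH, against 1104 and 1274 CPM in saline. Neither passed the test.

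Receptor lists held no gene that passed. The acetylcholine receptor list had 9 tested genes, 8 with a negative log2 fold change and a median of -0.31. Its Chrna7 had 67.3 and 74.9 CPM in METH members, against 95.4 and 80.0 CPM in saline members (adjusted p = 0.755 by edgeR). The opioid receptor gene Oprm1 had 196 and 215 CPM in METH, against 153 and 179 CPM in saline (log2 fold change 0.32, adjusted p = 0.553 by edgeR). Gria4, an AMPA receptor subunit, had a log2 fold change of 0.22 (adjusted p = 0.583 by edgeR). Htr2a had 127 and 158 CPM in METH, against 142 and 134 CPM in saline, which overlap. Of 6 tested genes of dopamine signalling, 2 had a positive and 4 a negative log2 fold change, with a median of -0.04, and of 31 potassium channel genes 17 were positive and 14 negative, with a median of 0.01. Kcnh5 had 1347 and 1389.9 CPM in METH, against 1306 and 1277 CPM in saline (log2 fold change 0.09).

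Lists of energy, hormone and chromatin genes had medians near 0. The 13 mitochondrially encoded genes had a median log2 fold change of -0.06, with 6 positive and 7 negative. The 10 glucocorticoid response genes had 8 positive and 2 negative and a median of 0.10, and Fkbp5 had 13.6 and 20.8 CPM in METH, against 15.2 and 18.53 CPM in saline. The 18 SWI/SNF chromatin subunits tested had a median of 0.03, and the 16 clock genes a median of 0.09. Of the 10 cathepsin and cystatin genes tested, Cst3 alone passed, with 6 positive, 4 negative and a median of 0.11.

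Glial markers in the members were tested gene by gene, and none passed. All 6 oligodendrocyte markers and all 9 microglia markers tested had positive log2 fold changes, with medians of 0.50 and 0.47. An unadjusted p under 0.05 by edgeR was reached by 5 of the 6 and 2 of the 9, against 5.41% of all genes tested. The groups did not overlap for 6 of the 6 and 8 of the 9, against 33.9% of all genes tested. Of 5 astrocyte markers tested, 2 had a positive and 3 a negative log2 fold change. Mog, a myelin protein gene, had 32.2 and 39.1 CPM in METH members, against 18.9 and 22.5 CPM in saline members (log2 fold change 0.79, adjusted p = 0.0824 by edgeR). Its level in members was 18.0% and 18.4% of the library level in METH, against 22.2% and 15.3% in saline. C1qa, a complement gene of microglia, had 11.3 and 13.8 CPM in METH, against 5.82 and 9.08 CPM in saline. For both genes the groups do not overlap.

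Lists tied to the identity of the members held no called gene either. Of 8 tested genes known from layer 4 and layer 5 IT neurons, 6 had a positive and 2 a negative log2 fold change, with a median of 0.08. Unc5d, a netrin receptor, had 281 and 283 CPM in METH members, against 228 and 258 CPM in saline members (adjusted p = 0.716 by edgeR). Of 9 genes of callosal identity, 4 were positive and 5 negative, with a median of -0.01. The 8 upper-layer genes tested had a median of 0.19 and the 9 deep-layer genes a median of -0.11. Of 11 genes of HGF and MET signalling, 3 could be tested outside the rule, all positive, with a median of 0.27. The 9 tested collagen and matrix genes had 3 positive and 6 negative and a median of -0.19, and the 9 tested genes of ROR and retinoid signalling a median of 0.04.

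Cst3 was higher in METH than in saline libraries both with and without a Hgf UMI. Nuclei with Hgf had 167 and 130 CPM of Cst3 in METH libraries, against 63.1 and 77.2 CPM in saline libraries. Nuclei without Hgf had 162 and 149.7 CPM in METH libraries, against 91.1 and 94.7 CPM in saline libraries. The log2 fold changes were 1.07 (SE 0.142) with and 0.76 (SE 0.0933) without Hgf, both called by edgeR, and their difference was not tested.

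Whether METH acted differently on L4/5 IT than on the other 5 panels was tested over 13543 genes, and 0 (0.0%) were called by edgeR, while 614 (4.53%) had an unadjusted p under 0.05. No other tool was run on this term. The smallest p among negative terms belonged to Pcdh17 (-0.48), Me3 (-0.32), which encodes a mitochondrial malic enzyme, and Il6r (-0.55), the interleukin-6 receptor. Among positive terms it belonged to Clmp (0.52), an adhesion molecule, Nudt4 (0.46) and Brinp3 (0.24). None of the 6 passed, with adjusted p between 0.652 and 0.999 by edgeR.

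In METH libraries L4/5 IT nuclei were more frequent among excitatory nuclei than in saline libraries, but the exact permutation test over 2 libraries per group cannot reach the threshold. METH libraries had shares of 21.1% (19.9 to 22.4, the 95% interval by the exact Clopper-Pearson method) and 23.4% (21.9 to 24.8). Saline libraries had shares of 16.7% (15.8 to 17.6) and 19.6% (18.3 to 20.9). The means were 22.3% ± 1.57 in METH and 18.1% ± 2.03 in saline (SD, n = 2 each), a difference of 4.13 percentage points with an exact two-sided permutation p of 0.3333, the smallest this design allows. The intervals cover counting error only.

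The lowest share was that of saline replicate 1, also the shallowest library and, at 18958 barcodes, the largest. Of its 7257 excitatory nuclei, 3745 fell in no panel. In METH 1442 of 4105 and 1016 of 3343 did so, and in saline replicate 2 1071 of 3702. After thinning each nucleus to 2000 UMIs and reapplying the rule, the share was 13.9% and 13.1% in METH, against 12.8% and 10.8% in saline. The difference was 1.70 percentage points. Thinning left out 90 and 41 excitatory nuclei in METH and 1229 and 35 in saline as too shallow, and many more no longer met the rule. Excitatory nuclei after thinning numbered 2408 and 2014 in METH and 3978 and 2163 in saline. Members numbered 335 and 264 in METH and 509 and 234 in saline, so the thinned shares describe a smaller set of nuclei. Among the nuclei of the 6 panels, the unthinned share was 32.6% and 33.6% in METH, against 34.5% and 27.5% in saline, and the groups overlapped.

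**Figure D5:**
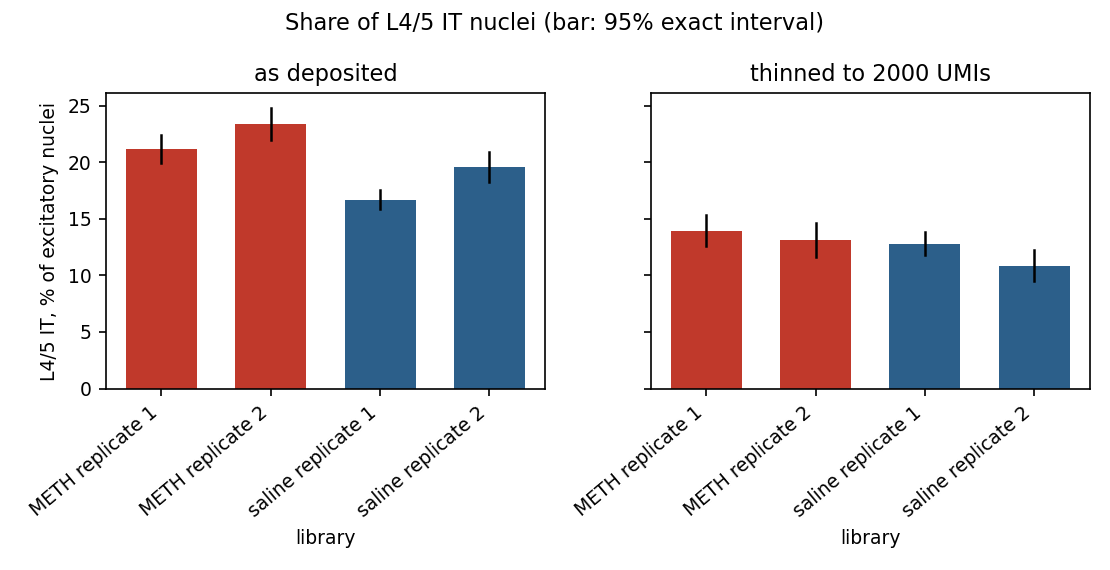
Bars give the L4/5 IT nuclei of each library as a percentage of its excitatory nuclei, METH (red) left of saline (blue), with black lines for 95% exact intervals; the left panel uses all UMIs and the right panel 2000 UMIs per nucleus. The METH bars stand at 21.1% and 23.4% on the left, above 16.7% and 19.6% in saline, and at 13.9% and 13.1% on the right, above 12.8% and 10.8% in saline.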

How the data were processed

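The deposited files hold raw UMI counts per gene and barcode for 4 libraries. Cell Ranger 7.0.0 is named as the authors' tool in the submitters' processing notes, and 10x 3' chemistry in the labels' protocols. The notes give the human build hg38, although the 25399 genes carry rat Ensembl identifiers. No source used here names the rat build, and coordinates come only from RefSeq's GRCr8 promoter table. Counts of the chosen nuclei were summed per library (library totals 37758602 to 44034787 UMIs), because the library and not the nucleus is the replicate.

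Sums of METH and saline libraries were set against each other in edgeR 4.0.16 under R 4.3.3 with its quasi-likelihood F test (two-sided, robust, TMM factors, filterByExpr, group only). Benjamini-Hochberg adjustment ran over all genes tested, and a gene was called below an adjusted p of 0.05. The SE is the size of the log2 fold change over the square root of F. The class-by-METH term was fitted with the library as a block. Lists were described by counts and medians. DESeq2 1.42.0 was an alternative, and the edgeR models were tested on simulated counts. Doublets were kept in the main result; Scrublet scores in Scanpy 1.11.5 gave an alternative that left out 90 and 79 METH and 148 and 48 saline members. Replicate numbers were checked for pairing: same-numbered libraries had a correlation of deviations of -0.00696 over 12499 genes. With 2 libraries per group, each group gives a single difference between libraries, so this value cannot settle whether they are paired.

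The members, gene lists and rules for naming genes were chosen with earlier results of these data known. For METH against saline, up to 12 called genes per direction are named, or the 5 with the smallest p where none was called. Both choices were made only among genes with groups apart. Named as well are list members called or with the smallest p, and a few given in any case. Against the other panels the 15 highest and 10 lowest genes by fold are named. A split by which gene of the rule leads was planned, but Col8a1 led in only 3 to 9 nuclei per library, so a split by a Hgf or Col8a1 UMI replaced it after the data were seen. Of 38 lists, those not mentioned in the results held no called gene. A few genes that these rules take are not reported here. Near-identical genes may share reads.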

Additional observations from a re-analysis of the deposited data

How the results depend on the processing

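Cst3 kept its direction and its call under all 17 alternatives, 2 of which (members with and without a Hgf UMI) were chosen after seeing the data. There its log2 fold change was 1.07 with and 0.76 without a Hgf UMI; the difference between these was not tested. The count of genes higher after METH was 1, and 28 with no filter on low counts, 5 with nuclei thinned to 2000 UMIs, and 2 to 12 with 1 library left out. The count lower was 0, and 9 with no filter, 1 with equal numbers of nuclei, and 0 to 12 with 1 library left out. Without saline replicate 2 there were 12 higher and 12 lower, and without saline replicate 1 there were 8 and 1; with METH replicates 1 and 2 left out in turn there were 2 higher each, and 1 and 0 lower. For the class-by-METH term the counts of 0 became 1 higher and 2 lower with no filter, 0 to 9 higher and 0 to 11 lower with 1 library left out; without METH replicate 1 they were 5 and 4, and without saline replicate 2 they were 9 and 11. A lone library is assumed there to vary like the other group. The cause of these shifts was not tested.

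Samd5 passed with no filter, with equal numbers of nuclei (log2 fold change -0.50) and without saline replicate 1 (-0.50). Pcdh17 passed with no filter and without saline replicate 2 (-0.53), and so did its class-by-METH term. Mog passed with no filter (0.80) and without saline replicate 2 (0.92), and Egr2 with no filter (1.80). Etv1 (-0.42), Ssh3 (-0.67), Oprm1 (0.43), Ntrk2 (0.34) and the term of Clmp (0.66) passed without saline replicate 2, and all 5 passed with no filter, as did Gria4 (0.23). Also past the threshold were the term of Me3 (-0.42) without METH replicate 1 and Homer1 (0.75) without METH replicate 2. In all, 502 values of named genes kept direction and side of the threshold, 27 passed only under an alternative and 13 turned direction. Some directions turned, none of them past the threshold. With 1 library left out, Fkbp5 ranged over -0.29 to 0.30, Htr2a over -0.10 to 0.21 and Nr4a2 over -0.20 to 0.40. Fkbp5 was at -0.18 with a panel ratio of 3, Htr2a at -0.17 thinned and Nr4a2 at -0.00088 with equal numbers of nuclei. In members with a Hgf UMI, Fkbp5 was at -0.29, Htr2a at -0.029, Kcnh5 at -0.045 and Grik1 at -0.31. The term of Il6r was 0.62 thinned.

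The difference in share was 4.13 percentage points, and 1.70 thinned, 2.08 with the nuclei of the 6 panels as the denominator, and 2.70 to 5.57 with 1 library left out. With the replicate block, 1 gene was higher and 0 lower, and Cst3 had an adjusted p of 0.0218 by edgeR. The simulated counts held log2 changes of size 1 and 2 only, and whether 2 libraries per group can call smaller changes was not tested. Markers such as Drd1, Met and Scnn1a are limited by counts of a few UMIs.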
